A study of Oryza sativa Japonica Group with 6 samples.

Results

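Metallothioneins are small, cysteine-rich proteins that bind copper, zinc and cadmium through clusters of thiol groups. In plants they buffer free metal ions, hand copper and zinc to other proteins and can scavenge reactive oxygen species. Plant metallothioneins are sorted into types by the arrangement of their cysteines: types 1 to 3 are found in roots, shoots, leaves and ripening fruit, and the Ec type, first purified from wheat embryos, belongs to seeds. Their messages are often among the most abundant of a leaf.

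The metallothioneins described here are the 10 genes with the highest mean TPM (transcripts per 1000000 transcripts, a level corrected for transcript length) among the genes whose annotation contains the word metallothionein. The deposited table holds 14 such genes out of 37863. The members were chosen by their mean TPM over all 6 libraries, so their levels are given as a description and without a test, while the difference between genotypes took no part in the choice. All 10 had at least 1 read count somewhere and the other 4 had none in any library. The member at the edge of the choice was Os12g0568200, with a mean of 0.0772 TPM, and the next gene stood at 0.

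The libraries were made from polyA RNA of leaves of rice seedlings (Oryza sativa, Japonica group), taken 14 days after planting and grown on MS medium with 16 h of light and 8 h of dark at 28 °C. OsWRKY65-2 is a transgenic line that overexpresses OsWRKY65, a WRKY transcription factor, and was represented by 3 libraries. Wild type (WT) was represented by another 3. The overexpressing plants come from 1 line, and the sources used here give neither the promoter of the transgene nor whether replicates were separate plants, so p-values cover only the scatter of these libraries, part of which may be technical. The names of the WT columns in the table do not say WT: they were read as WT because no other columns were left for those samples, and every direction rests on that reading.

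Libraries held between 20585288 and 29720852 counts. The gene taken as OsWRKY65, Os12g0116800, was at 69.5, 42.3 and 1040 CPM (counts per 1000000 counts of a library) in the OsWRKY65-2 libraries and at 4.16, 0 and 0 CPM in the WT libraries, in the order of replicates 1 to 3. OsWRKY65-2 replicate 3 stood apart: across genes, its log2 CPM gave correlations of only 0.603 to 0.695 with any other library, and it had no count for 2444 genes whose median count in the rest was above 50, against 28 to 198 in each other library. Fold changes of the members are therefore given with and without that library. The 23 genes matched by annotation as leaf mesophyll markers, mostly chlorophyll a/b-binding proteins but including a stray match to a heading-date regulator, summed to 23193, 25498 and 25916 TPM in OsWRKY65-2 replicates 1 to 3 and to 17389, 14309 and 20671 TPM in WT replicates 1 to 3. This sum was higher in every OsWRKY65-2 library than in any WT library. Of 59 genes matched by words for seed storage proteins, 45 had no count anywhere, and the rest, led by a subunit of the vacuolar proton pump, summed to 316 to 368 TPM in OsWRKY65-2 and to 440 to 573 TPM in WT. The part of these differences in the results on metallothioneins was not tested.

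Expression of the family was concentrated in 5 genes. The 10 members together made up 1.07%, 0.494% and 0.947% of all TPM in OsWRKY65-2 replicates 1 to 3, against 0.565%, 0.564% and 0.603% in WT replicates 1 to 3. In TPM the WT libraries were close to each other, at 5775 ± 225 TPM (SD, n = 3). In TPM the OsWRKY65-2 libraries were spread on both sides of them, at 8387 ± 3048 TPM (SD, n = 3). TPM do not carry the library scaling factors used in the comparison of genotypes, which ran from 0.914 to 1.106. The place of OsWRKY65-2 replicate 2 below WT is thus a statement about TPM only. In CPM its most abundant member, Os01g0200700, was at 1449, within the WT range of 1342 to 2122. The other 5 members stayed below 100 counts in every library.

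The most abundant member was Os01g0200700 on chromosome 1 (chromosomes are those encoded in the gene identifiers), annotated as a metallothionein-like protein of tolerance to salinity and heavy metals. It stood at 9172, 3652 and 6033 TPM in OsWRKY65-2 replicates 1 to 3 and at 4613, 3918 and 5468 TPM in WT replicates 1 to 3. The genotypes overlapped, since in TPM OsWRKY65-2 replicate 2 was the lowest of all libraries and replicate 1 the highest. In CPM, on which the fold change rests, they overlapped too. There WT replicate 2 was the lowest, at 1342 CPM, against 1449 CPM in OsWRKY65-2 replicate 2. Among all genes it ranked between 7th and 15th by TPM in every library, and it supplied 63.7% to 90.6% of metallothionein TPM. Its log2 fold change, OsWRKY65-2 over WT, was 0.68 ± 0.41 (SE, adjusted p = 0.787, quasi-likelihood test of edgeR), and 0.69 ± 0.42 without OsWRKY65-2 replicate 3 (adjusted p = 0.609, edgeR).

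**Figure D1:**
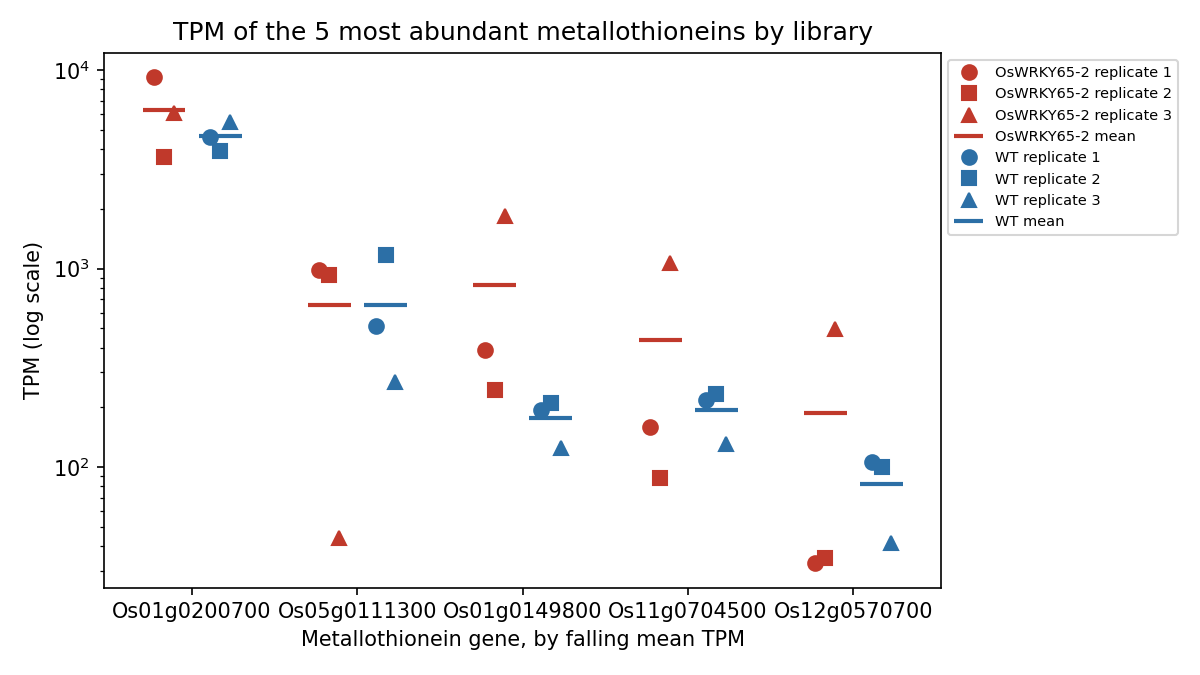
TPM on a log scale of the 5 most abundant metallothioneins in each library, OsWRKY65-2 in red and WT in blue; symbols mark replicates and lines the mean of 3 libraries. OsWRKY65-2 replicate 3 (red triangles) is the lowest point of Os05g0111300, at 44.2 TPM, and the highest of Os01g0149800, Os11g0704500 and Os12g0570700, at 1837, 1061 and 495 TPM.

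Os01g0149800, annotated as a type 2 metallothionein-like protein and also on chromosome 1, was the expressed member whose genotypes stood apart. It was at 387, 245 and 1837 TPM in OsWRKY65-2 replicates 1 to 3 and at 193, 211 and 125 TPM in WT replicates 1 to 3. All 3 OsWRKY65-2 libraries were higher than all 3 WT libraries, by a wide margin in replicate 3 and a narrow one in replicate 2. Such a separation upward was found in 7.16% of the 23769 genes tested. The log2 fold change was 2.52 ± 0.82 (SE), with an unadjusted p of 0.0208 and an adjusted p of 0.763 (edgeR), so it did not pass the threshold of 0.05 on the adjusted p. Without OsWRKY65-2 replicate 3 it was 1.09 ± 0.28 (SE, adjusted p = 0.244, edgeR), less than the value over all libraries by more than 1 log2 unit. DESeq2, run as an alternative, called it higher (log2 fold change 2.57 ± 0.74, adjusted p = 0.0227), as it did 1.76% of genes.

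Os05g0111300 on chromosome 5, annotated only as similar to metallothionein, was the second most abundant member by the mean over 6 libraries. It was at 986, 924 and 44.2 TPM in OsWRKY65-2 replicates 1 to 3 and at 512, 1176 and 269 TPM in WT replicates 1 to 3. In TPM, WT libraries alone differed 4.38-fold, and OsWRKY65-2 replicates 1 and 2 lay within their range, while replicate 3 lay below all others. Group means in TPM were almost the same, at 652 ± 527 in OsWRKY65-2 and 652 ± 469 in WT (SD, n = 3 each). In CPM, on which the fold change rests, OsWRKY65-2 replicate 1 (504.5) was just above the highest WT library (479.6). Mean CPM were 321.4 ± 260.7 in OsWRKY65-2 and 269.5 ± 186.3 in WT (SD, n = 3 each). The log2 fold change was 0.25 ± 1.04 (SE, adjusted p = 0.971, edgeR) but its sign turned with the method, being -0.41 in limma-voom and -0.38 under a replicate block. Without OsWRKY65-2 replicate 3 it was 0.80 ± 0.49 (SE, adjusted p = 0.603, edgeR).

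The type 1 genes with expression were Os11g0704500 on chromosome 11, annotated with zinc homeostasis, drought tolerance and blast resistance, and Os12g0570700 on chromosome 12. Os11g0704500 was at 160, 87.9 and 1061 TPM in OsWRKY65-2 replicates 1 to 3 and at 217, 233 and 131 TPM in WT replicates 1 to 3. Os12g0570700 was at 32.8, 34.7 and 495 TPM in OsWRKY65-2 replicates 1 to 3 and at 106, 100.1 and 41.3 TPM in WT replicates 1 to 3. Both genes were highest in OsWRKY65-2 replicate 3, and for Os12g0570700 the other OsWRKY65-2 libraries lay below every WT library.

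Over all libraries the log2 fold change was 1.47 ± 0.94 for Os11g0704500 and 1.50 ± 1.14 for Os12g0570700 (SE, adjusted p = 0.794 and 0.823, edgeR). The direction turned without OsWRKY65-2 replicate 3. It was then -0.39 ± 0.32 for Os11g0704500 (SE, adjusted p = 0.724, edgeR) and -1.04 ± 0.36 for Os12g0570700 (SE, unadjusted p = 0.0208, adjusted p = 0.376, edgeR). A single library thus decided the sign of both type 1 genes.

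**Figure D2:**
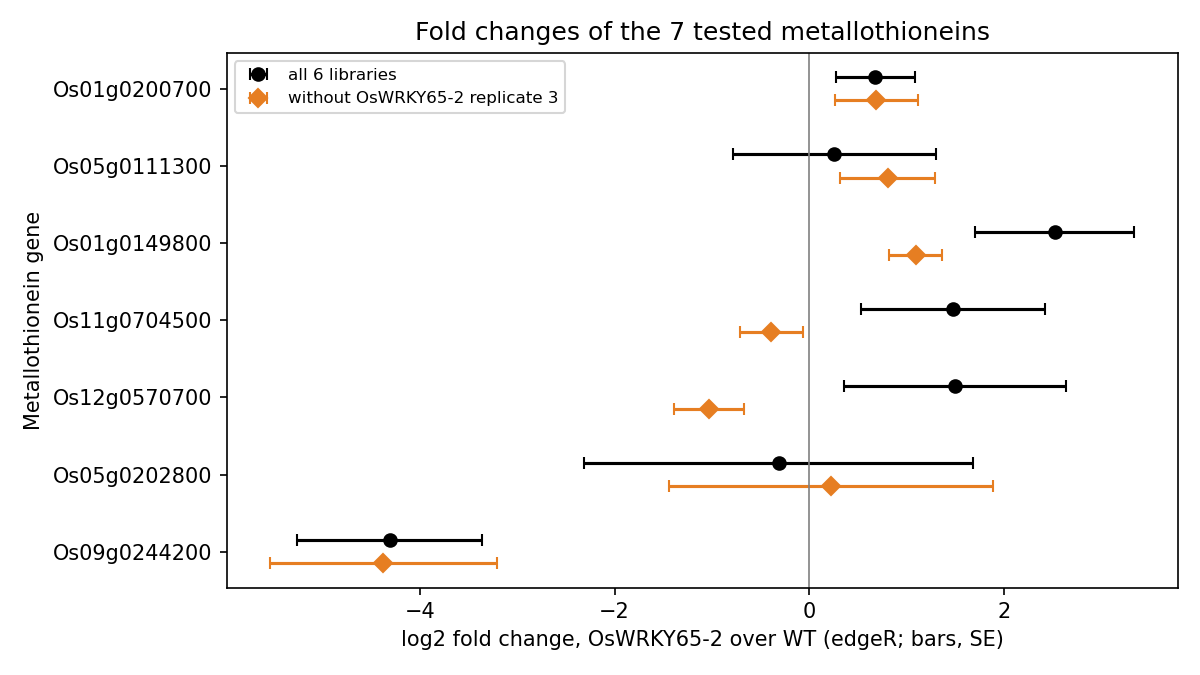
Log2 fold changes, OsWRKY65-2 over WT, of the 7 metallothioneins that entered edgeR's test, over all 6 libraries (black) and without OsWRKY65-2 replicate 3 (orange); bars are SE. Os11g0704500 and Os12g0570700 lie right of 0 with that library, at 1.47 and 1.50, and left of 0 without it, at -0.39 and -1.04, while Os01g0149800 is right of 0 in both fits.

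The same library changed the make-up of the family. Os01g0149800 and the type 1 genes Os11g0704500 and Os12g0570700 supplied 19.4%, 11.2% and 5.22% of metallothionein TPM in OsWRKY65-2 replicate 3. In the other 5 libraries Os01g0149800 supplied 2.06% to 4.95%, and the type 1 genes together 1.79% to 5.90%. Os05g0111300 supplied 0.467% in replicate 3, and between 4.45% and 20.8% elsewhere. Its ratio to Os01g0149800 in TPM was 2.55, 3.77 and 0.0241 in OsWRKY65-2 replicates 1 to 3, against 2.65, 5.58 and 2.16 in WT replicates 1 to 3. The order of these genes was therefore reversed in that library and in no other.

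The ratio between the type 1 genes varied less than that of Os05g0111300 to Os01g0149800. The ratio of Os11g0704500 to Os12g0570700 in TPM was 4.87, 2.53 and 2.15 in OsWRKY65-2 replicates 1 to 3 and 2.05, 2.32 and 3.16 in WT replicates 1 to 3. In WT, levels fell in the order Os01g0200700, Os05g0111300, Os11g0704500, Os01g0149800 and Os12g0570700 by mean TPM. The WT ranges of Os11g0704500 (131 to 233 TPM) and Os01g0149800 (125 to 211 TPM) overlapped, whereas those of the other neighbours in this order did not. Within each WT library Os11g0704500 was still the higher of these 2, at 217 against 193, 233 against 211 and 131 against 125 TPM. In OsWRKY65-2 the order by mean was Os01g0200700, Os01g0149800, Os05g0111300, Os11g0704500 and Os12g0570700. Below the first gene the ranges of all neighbours overlapped across libraries, though Os11g0704500 was above Os12g0570700 within each library.

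**Figure D3:**
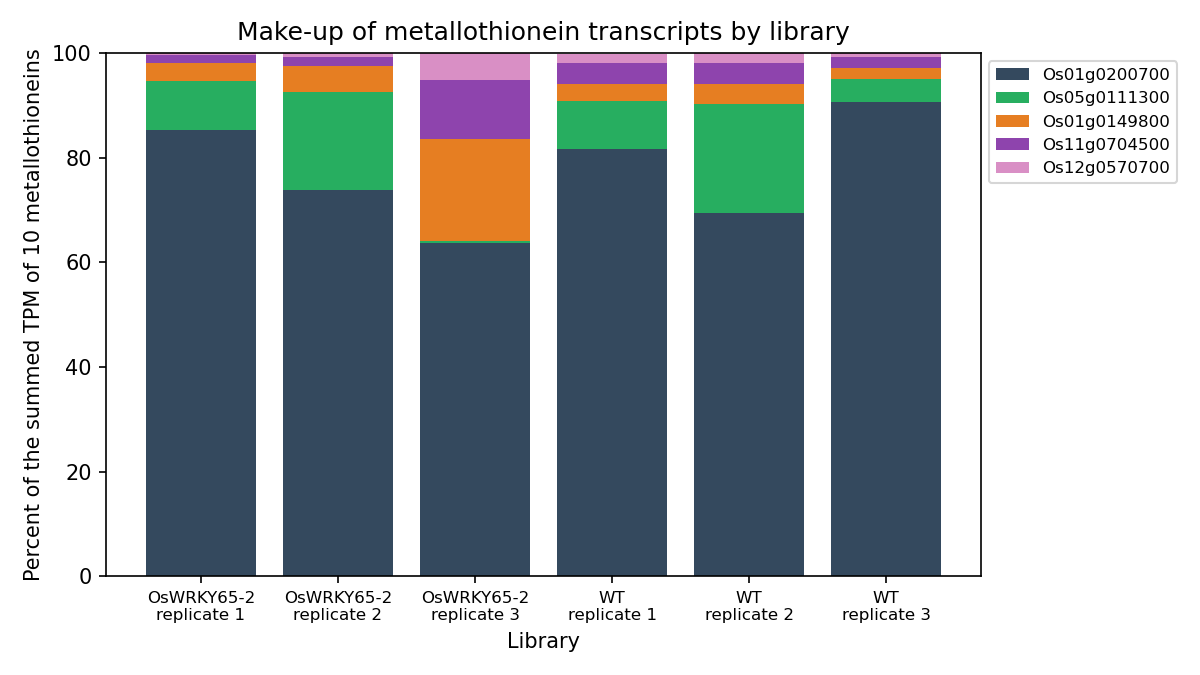
Percent of the summed TPM of the 10 metallothioneins supplied by each of the 5 most abundant genes, one bar per library, OsWRKY65-2 on the left and WT on the right. Os01g0200700 is the largest part everywhere (63.7% to 90.6%); Os05g0111300 shrinks to 0.467% in OsWRKY65-2 replicate 3, where Os01g0149800 reaches 19.4%.

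Set against the mean of the WT libraries, 3 of the 7 tested members were at least 4 times higher in CPM in OsWRKY65-2 replicate 3 (Os01g0149800, Os11g0704500 and Os12g0570700) and 3 were at 0.25 times or less (Os05g0111300, Os05g0202800 and Os09g0244200). Of all tested genes, 8.12% and 25.1% lay that far above and below WT in that library. No member was 4 times higher in OsWRKY65-2 replicate 1 or 2, where 2.56% and 1.54% of genes were, and 1 member in replicate 1 and 2 members in replicate 2, all with under 100 counts, lay at 0.25 times or less, against 5.50% and 4.02% of genes. Os09g0244200 had no count in any OsWRKY65-2 library and was tested through its WT counts alone, so its place below was built in. WT replicate 3, set against the mean of the other WT libraries, had 1 member at 0.25 times or less, against 6.73% of genes. That member was Os05g0202800, with no count there. The 4-fold limit was set after the values had been seen.

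Transcripts of other tissues were looked at beside this library. The 10 genes matched as root markers summed to 787 TPM in OsWRKY65-2 replicate 3, against 48.9 and 66.6 TPM in replicates 1 and 2 and 38.9 to 216 TPM in WT. Almost all of that came from Os12g0555000, a root-specific pathogenesis-related protein that its annotation also links to drought, salt and defense, at 746 TPM. The RCc3-like root gene Os04g0554800 was at 1.30 TPM there, against 20.6 to 33.4 TPM in the other libraries. Summed transcripts of genes matched as dividing-cell markers, mostly histones, were 2165 TPM in replicate 3, and 4140 to 7702 TPM elsewhere. That list includes stray matches to S-adenosyl-methionine synthetases and histone-modifying enzymes, whose part in the sum was not separated. Genes matched by words for senescence, including a glutamate-cysteine ligase, summed to 906 TPM in replicate 3, and 624 to 805 TPM elsewhere. The part of these tissues in the metallothionein levels was not tested, and in bulk leaf RNA fewer cells of a type and less RNA per cell cannot be told apart.

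The remaining members were near the limit of detection. Os09g0244200 on chromosome 9, annotated as similar to type 1, had 24, 85 and 25 counts in WT replicates 1 to 3 and none in any OsWRKY65-2 library. It entered the test through its WT counts alone, so a difference was built in. Taking 3 counts per library as the most that a count of 0 allows, it was at least 10.8-fold lower in OsWRKY65-2 than the WT mean of 1.52 ± 0.929 CPM (SD, n = 3). Separation downward was found in 10.5% of tested genes. Its unadjusted p was 0.00884 and its adjusted p 0.763 in edgeR, while DESeq2 called it (adjusted p = 0.000880), as it did 1.27% of genes in that direction. Every library held few genes with a single count (63 to 247), so low values may be missing from the table, and a 0 may hide more than the 3 counts assumed.

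Os05g0202800 on chromosome 5, similar to metallothionein-like protein 3B, had 46, 7 and 0 counts in OsWRKY65-2 replicates 1 to 3 and 52, 42 and 0 counts in WT replicates 1 to 3. Its genotypes overlapped, and its log2 fold change was -0.32 ± 2.00 (SE, adjusted p = 0.980, edgeR). The last 3 members did not pass the filter on low counts. Os10g0542100, annotated as an Ec metallothionein-like protein, had 25 counts in OsWRKY65-2 replicate 3 and none in any other library. Os03g0288000 had 3 and 9 counts in WT replicates 1 and 3, and Os12g0568200 4 counts in OsWRKY65-2 replicate 1. No difference was detectable for these at this depth.

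Of the metallothionein genes annotated to chromosome 12, Os12g0567800, Os12g0568500, Os12g0571000 and Os12g0571100 were at 0 in every library. Os12g0568200 and Os12g0568500 share an older locus name in the table, LOC_Os12g38051.1. Near-identical copies can share reads, and how the counting treated reads with several matches is not given in the sources used here, so the split among the type 1 genes is uncertain.

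In all, edgeR called 0 of the 7 tested members higher and 0 lower, against 0.0% and 0.0% of the 23769 genes. At an unadjusted p under 0.05 there were 2 members, Os01g0149800 and Os09g0244200, against 6.51% of genes. Without OsWRKY65-2 replicate 3, again 0 members were called, against 0.0527% of genes called higher and 0.0243% lower. DESeq2 called Os01g0149800 higher, against 1.76% of genes, and Os09g0244200, whose difference was built in, lower, against 1.27%. limma-voom called 0 members in either direction.

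The genes whose pattern over the 6 libraries was closest to that of Os01g0200700 were sought by the root-mean-square difference of log2(CPM + 1), centred on each gene's mean, among 4339 genes with a mean of at least 50 CPM. The closest was Os01g0871200, a C2H2 zinc finger protein, at a difference of 0.115 log2 units, with 1501, 561 and 1224 CPM in OsWRKY65-2 replicates 1 to 3 and 577, 558 and 921 CPM in WT replicates 1 to 3. Next came Os05g0406100, a hypothetical conserved gene, Os05g0148700, similar to OSA15, Os03g0775600, with no informative annotation, and Os02g0649700, similar to an ftsH-type protease, at 0.121 to 0.130. The choice fixed that these genes share the ups and downs of Os01g0200700 over these libraries, such as the high value in OsWRKY65-2 replicate 1, so this is no separate finding.

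Metallothioneins act beside proteins that carry metals across membranes or pass them between partners. A list of such metal-handling genes, matched by annotation, held 50 genes, of which 45 were tested. The fold change was negative in 32 of these and positive in 13, against 50.5% negative among all tested genes, and the median log2 fold change was -0.15 against -0.01. Without OsWRKY65-2 replicate 3, 31 of 46 were negative and 15 positive, with a median of -0.21 against 0.02 over all genes. In 11 genes every OsWRKY65-2 library lay below every WT library, and in 2 every one lay above, against 10.5% and 7.16% of all tested genes. edgeR called 0 of them in either direction, with 6 at an unadjusted p under 0.05, against 6.51% of all tested genes. DESeq2 called 0 higher and 5 lower, against 1.76% and 1.27% of genes. Os08g0455900, a putative copper transporter, is 1 of the 5, with no count in any OsWRKY65-2 library and 1.60, 2.02 and 1.83 CPM in WT replicates 1 to 3. It entered the test through its WT counts alone, so its difference was built in. The same holds for the zinc transporter Os01g0972200, and these 2 of the 11 had no OsWRKY65-2 library with 10 counts or more. The 11 include Os03g0858800, a chloride efflux carrier that entered the list by an accidental match of its annotation and is also among the 5.

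Of 6 tested copper transporters and chaperones, 5 had a negative fold change and 1 a positive one. Os02g0530100, a homologue of the copper chaperone CCH, which passes copper to copper-pumping ATPases, was at 96.6, 67.7 and 35.0 CPM in OsWRKY65-2 replicates 1 to 3 and at 152, 204 and 170 CPM in WT replicates 1 to 3. The genotypes did not overlap. Its log2 fold change was -1.40 ± 0.39 (SE, adjusted p = 0.763, edgeR), and -1.10 ± 0.24 without OsWRKY65-2 replicate 3 (SE, adjusted p = 0.208, edgeR). DESeq2 called Os02g0530100 lower (log2 fold change -1.41 ± 0.36, adjusted p = 0.00783), as it did 1.27% of genes. Os02g0794600, similar to COX17, which brings copper to mitochondrial cytochrome c oxidase, was at 5.56, 4.17 and 35.3 CPM in OsWRKY65-2 replicates 1 to 3 and at 2.08, 4.06 and 1.75 CPM in WT replicates 1 to 3. Here every OsWRKY65-2 library was above WT, in replicate 2 only narrowly, and the log2 fold change of 2.47 ± 0.94 became 0.86 ± 0.53 without replicate 3 (SE, adjusted p = 0.763 and 0.604, edgeR). DESeq2 did not call Os02g0794600 (adjusted p = 0.0877).

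Heavy metal ATPases, which pump zinc, copper and cadmium across membranes, had a negative fold change in 5 of 7 members, and in 4 the OsWRKY65-2 libraries all lay below WT, against 10.5% of all tested genes. Os06g0700700, annotated with delivery of zinc to developing tissues, was at 17.4, 13.6 and 11.1 CPM in OsWRKY65-2 replicates 1 to 3 and at 22.3, 22.7 and 25.8 CPM in WT replicates 1 to 3. Os02g0172600, similar to a heavy metal ATPase, was at 45.4, 44.3 and 44.1 CPM in OsWRKY65-2 replicates 1 to 3 and at 71.2, 69.6 and 54.2 CPM in WT replicates 1 to 3. For both, no OsWRKY65-2 library reached the lowest WT library. Log2 fold changes were -0.75 ± 0.27 and -0.54 ± 0.20 (SE, adjusted p = 0.763 for both, edgeR), and -0.61 and -0.54 without OsWRKY65-2 replicate 3 (adjusted p = 0.431 and 0.412, edgeR). DESeq2 called both lower (adjusted p = 0.0255 and 0.0426).

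The other kinds had members on both sides. Fold changes were negative for 7 of 10 zinc and ZIP transporters, 3 of them without overlap, against 10.5% of all tested genes. The 3 include Os01g0972200, whose separation was built in. In the other direction 1 zinc transporter, Os08g0207500, was higher without overlap, against 7.16% of all tested genes. Fold changes were negative for 8 of 12 metal tolerance and cation diffusion genes, the chloride carrier included. Of these, 2 had no overlap, near the share of 10.5% over all tested genes. Phytochelatin and glutathione synthesis genes, whose products also bind metals through thiols, had log2 fold changes from -0.76 to 0.79, and the genotypes overlapped in all 6.

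**Figure D4:**
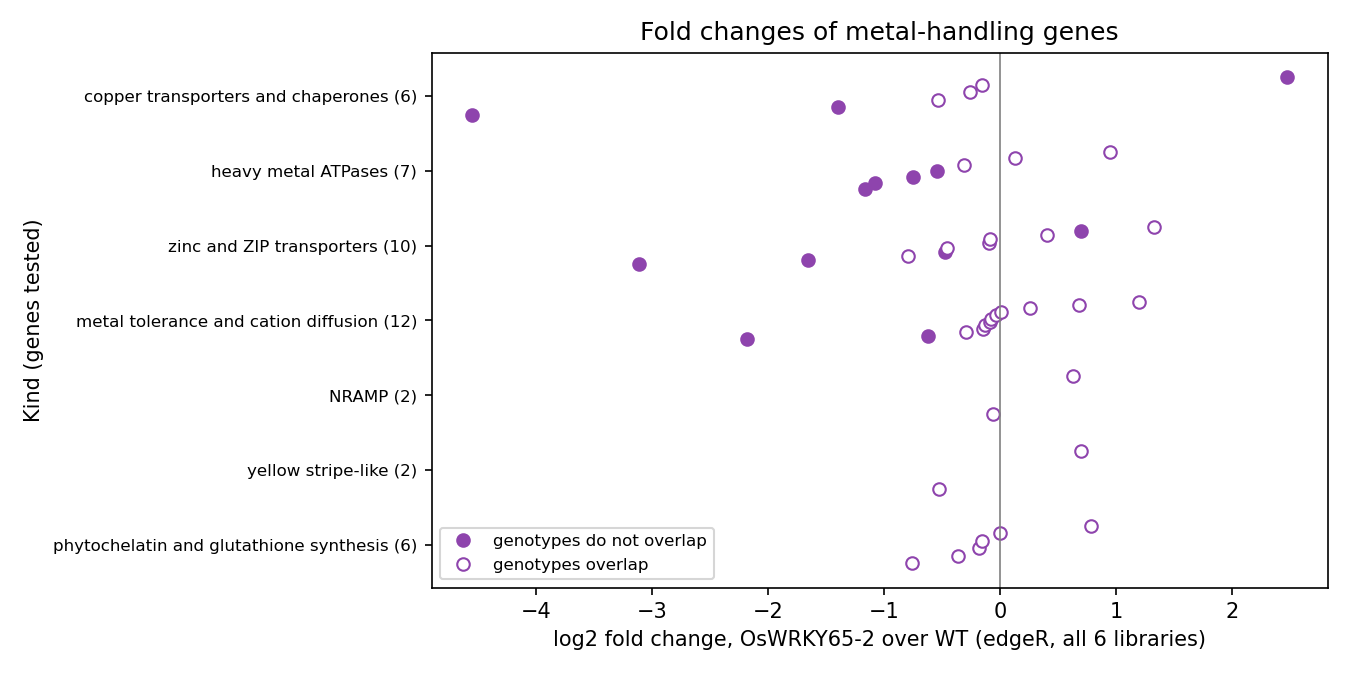
Log2 fold changes, OsWRKY65-2 over WT, of 45 tested metal-handling genes by kind, over all 6 libraries; filled points are genes whose genotypes do not overlap. Points left of 0 are in the majority (32 of 45), and the filled points number 11 on the left and 2 on the right.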

How the data were processed

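One gene table of 3 OsWRKY65-2 and 3 WT leaf libraries was analysed. The submitters' processing notes name StringTie 2.1.3b, HISAT2 2.1.0, Trimmomatic and bcl2fastq 2.20.0, and the build IRGSP-1.0. In the sources used here, how reads were counted, and whether by strand, is not given. The read counts deposited by the authors are estimated counts, already whole. Each library's deposited TPM values total 1000000 and do not show depth. The table holds 6 further value columns that were not used. No sequence or coordinate is printed, since the reference gene table used here is of another assembly and lacks these identifiers.

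Levels between genes are in TPM. Genotypes were compared on counts with edgeR 4.0.16 (R 4.3.3), by the quasi-likelihood test with robust dispersions, after filterByExpr (minimum count 10) and TMM scaling, with genotype as the sole term and a prior count of 2; genes with a Benjamini-Hochberg adjusted p under 0.05 over all 23769 tested genes were called. The SE is the log2 fold change divided by the square root of F. The script was run on simulated counts with a fixed dispersion and no library standing apart. That checks the code and does not show how well the test does on these libraries. CPM use TMM factors and keep a count of 0 as 0. A floor of 3 counts served only for the fold limit of metallothioneins with no count in any OsWRKY65-2 library. It is 0.0917 to 0.160 CPM per library, with a mean of 0.142 CPM over the OsWRKY65-2 libraries, and covers counting error only. Alternatives were DESeq2 1.42.0 and its size factors, limma 3.58.1 (voom, and trend on log2(TPM + 1) and log2(TPM + 0.1)), other filters, a replicate block and each library left out. All 10 members are named, and of the metal-handling genes the 4 with the smallest unadjusted p at a mean of at least 5 CPM. The members and lists were chosen with earlier results of these data known.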

Additional observations from a re-analysis of the deposited data

How the results depend on the processing

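Of 97 alternative values for the 7 tested metallothioneins, 83 kept direction and were not called, 12 reversed and 2 passed the threshold. The 2 that passed were in DESeq2. It called 1 metallothionein higher and 1 lower, 5 metal-handling genes lower, and 419 of all tested genes higher and 303 lower. DESeq2 gave neither a p nor an adjusted p for Os12g0570700, which is among the 83 by its direction alone. Genes called higher numbered 2 when no filter was applied and 2 in limma-trend (both pseudocounts). Leaving out 1 library gave 0 to 13 genes called higher and 0 to 6 lower, all without OsWRKY65-2 replicate 3. Os05g0111300 reversed to -0.41 in limma-voom, -0.66 and -0.67 in limma-trend at pseudocounts of 1 and 0.1 and -0.38 with the replicate block, and ranged from -0.23 to 0.94 over the libraries left out (-0.09 without WT replicate 3, -0.23 and -0.08 without OsWRKY65-2 replicates 1 and 2). Leave-one-out ranges were -0.39 to 1.98 for Os11g0704500, -1.04 to 2.02 for Os12g0570700 and -2.55 to 0.39 for Os05g0202800; the last reversed to 0.39 without WT replicate 1 and to 0.06 and 0.22 without OsWRKY65-2 replicates 2 and 3. Os01g0149800 stayed positive (1.09 to 2.97), as did Os01g0200700 (0.28 to 0.95), and Os09g0244200 negative (-4.54 to -3.64). The stricter filter removed Os05g0202800. What causes them was not tested.

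The replicate block called 0 metallothioneins and 0 genes in either direction. Replicate numbers did not pair the libraries: deviations of same-numbered libraries from their group means correlated at 0.0498, -0.0581 and -0.00648, and not every library correlated best with its own number, so the numbers are shared labels and no pairing.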

Other observations

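The genes next to the metallothioneins by identifier order were listed after the values had been seen. Os01g0149900, a conserved hypothetical protein and the next identifier after the type 2 gene Os01g0149800, was at 21.6, 12.0 and 75.9 TPM in OsWRKY65-2 replicates 1 to 3 and at 13.6, 12.3 and 11.7 TPM in WT replicates 1 to 3. Like Os01g0149800, it was highest in OsWRKY65-2 replicate 3, at 6.05 times the WT mean, against 10.4 times for the metallothionein. The next identifier, Os01g0150000, annotated with a steroid dehydrogenase domain, was at 170.6, 228.6 and 101.9 TPM in OsWRKY65-2 and at 292, 269 and 271 TPM in WT. On the other side, Os01g0149700 and Os01g0149750 were at only 3.65 and 3.68 TPM in OsWRKY65-2 replicate 3, or 16.9 and 5.98 times the WT mean. Neighbours of the other members ran from 0 to 19.0 times where WT had a level. In CPM, 8.12% of all tested genes were at least 4 times the WT mean in that library. Without strand information, reads of overlapping neighbours cannot be told apart, and whether these genes overlap was not tested.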
